A study of Mus musculus with 34 samples.

Results

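The genes described here have names tied to the motile cilium, which in spinal cord is carried by the ependymal cells that line the central canal. A name does not show that a gene acts only in motile cilia or is made only by ependymal cells. Counts of members below are therefore counts of genes taken by name. Members were taken by name: every mouse gene whose symbol on the array starts with Dnah, Dnaic, Dnai plus a digit, Rsph, Tekt or Cfap, together with Foxj1, Ak7, Spag6, Spag16, Spag17, Spef2, Hydin, Ccdc39, Ccdc40 and Tmem212. The rule found 58 genes with a probe set of their own (93 probe sets), and each gene was read from the probe set with its highest mean. Only 16 of the 58 reached a log2 signal of 4 in 4 or more of the 34 arrays and were tested, among 11998 genes with a tested probe set in all. The other 42 stayed under that filter.

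A motile cilium has an axoneme of doublet microtubules, with dynein arms that drive sliding and a central pair of microtubules with its projections. Radial spokes pass signals from the central pair to the dynein arms. Tektins and other filament proteins line the doublets, and a ruler formed by Ccdc39 and Ccdc40 sets the spacing of the arms and spokes. Foxj1 is the forkhead transcription factor that switches on the axonemal genes in multiciliated cells, acting with RFX factors. In the spinal cord the cilia of ependymal cells move cerebrospinal fluid along the central canal, and these cells are known to divide after injury.

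Thoracic spinal cord was taken from C57BL/6J mice (past backcross generation 20) aged 8 to 12 weeks, and total RNA was hybridised to Affymetrix mouse arrays, one biological replicate per array. WT mice (trkB.T1 WT) and mice without the truncated neurotrophin receptor trkB.T1 (trkB.T1 KO) were compared as sham and 1, 3 and 7 days after a moderate thoracic contusion. Every group had 4 arrays except day 1 WT and day 3 KO, with 5 in each, and the number of arrays limits the precision. The short codes of the sham arrays start with Nav. The labels do not say whether an array held 1 animal or a pool. The deposited values are log2 GCRMA signals, and every difference below is in log2 units.

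Some arrays stood apart or went against a label. The array labelled sham KO replicate 2 read 9.46 and 8.59 on a pair of Ntrk2 probe sets that were at most 4.94 and 2.83 in the injured KO arrays. WT arrays read 10.01 to 10.85 and 8.64 to 9.92 on this pair, so the array was nearer to WT there. Its title was followed, and whether it is a KO array was not settled. It enters every comparison with sham KO, and leaving it out was among the alternatives run. Day 3 WT replicate 2 and day 3 KO replicate 3 had the lowest correlation with the rest of their group (r = 0.964 for both). Day 1 WT replicates 1 and 2 carry a day 7 and a sham label in other fields, and the title was followed. Their mean over 10 reactive astrocyte genes was 11.24 and 11.27. It was 6.63 to 6.87 in sham WT, 9.94 to 10.37 in day 7 WT and 10.84 to 11.20 in the other day 1 WT arrays. On this mean both arrays were nearer to day 1 WT than to the groups of their other labels. The choroid plexus gene Ttr read 13.87 on day 3 WT replicate 4 and at most 3.05 on the other 33 arrays with the same probe set. The mean of 12 choroid plexus genes, Ttr among them, was 4.05 on that array and 2.73 to 3.15 in sham WT. The choroid genes Otx2 and Kcne2 did not rise above 2.18 on any array, so they tell nothing about this one. Over 13 skeletal muscle genes the mean per array ran from 3.73 to 9.11 in sham WT and from 7.88 to 10.73 in sham KO. Array medians lay from 4.14 to 4.39, and the group mean of the medians was 0.06 to 0.17 higher after injury than in sham.

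Most of the axoneme was not measurable in this tissue. All 10 dynein heavy chain genes with a probe set of their own were under the filter. So were Hydin, Spag6, Spag16, Spag17 and Spef2, which encode parts of the central pair apparatus, as well as Ccdc40 and Tmem212. Of the 42 genes, 11 lay within 0.1 of the lowest value of the table (2.17) on all arrays, and 4 (Dnaic1, Rsph4a, Tekt1 and Tmem212) reached 4 on any array, with 4.47 in sham WT the highest. A value at the bottom of the scale gives a bound and does not show that a gene was off. All 14 genes of a sperm and testis list were also under the filter, with group means of 2.19 to 2.20.

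**Figure D1:**
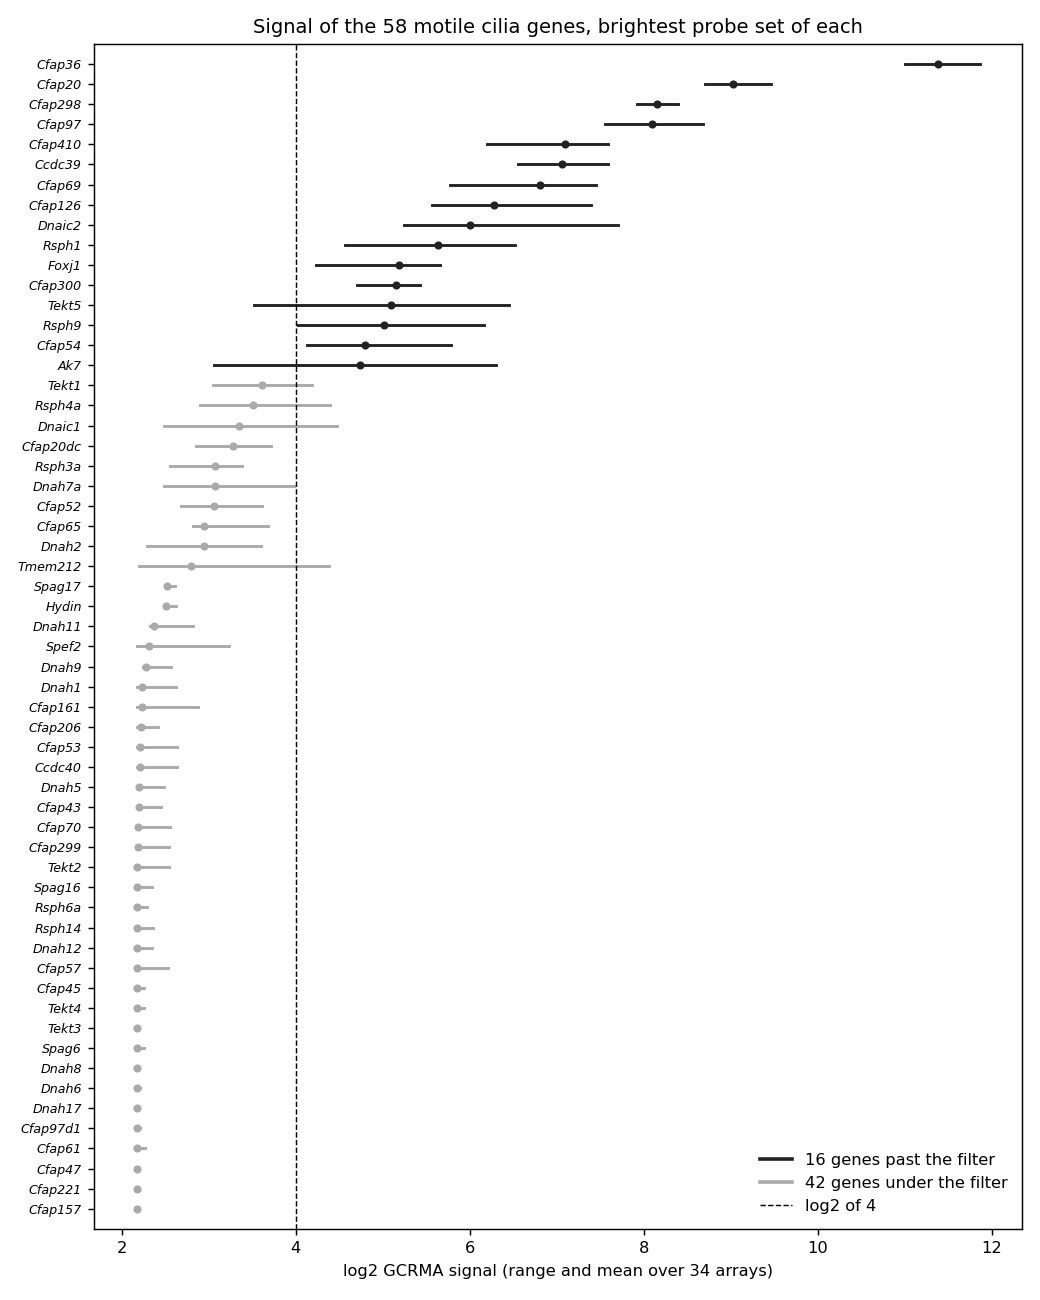
Each line spans the lowest to the highest log2 GCRMA signal of one gene over 34 arrays and the point is its mean; the dashed line is the log2 of 4 used in the filter. The 16 tested genes are black and the 42 others grey, most of them at the bottom of the scale; probe sets differ in brightness, so the order of genes is not an order of RNA amounts.

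The promoters of 4 members are shown because they belong to the members with the largest mean fall over the 6 comparisons with sham among those with a RefSeq promoter: Tekt5 (mean difference -1.44), Ak7 (-1.27), Rsph9 (-0.50) and Cfap69 (-0.50). Each line gives the 250 bases before the RefSeq start site (GRCm38.p6), on the strand of the gene, and capitals mark the only match to a searched motif. Tekt5 lies at chr16:10395456-10395705 (minus strand), Ak7 at chr12:105705732-105705981 (plus strand), Rsph9 at chr17:46144201-46144450 (minus strand) and Cfap69 at chr5:5664233-5664482 (minus strand).
Tekt5: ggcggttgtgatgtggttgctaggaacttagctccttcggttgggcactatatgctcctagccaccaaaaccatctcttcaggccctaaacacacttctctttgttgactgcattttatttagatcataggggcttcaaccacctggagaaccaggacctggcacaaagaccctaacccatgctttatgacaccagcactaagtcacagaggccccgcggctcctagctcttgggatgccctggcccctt
Ak7: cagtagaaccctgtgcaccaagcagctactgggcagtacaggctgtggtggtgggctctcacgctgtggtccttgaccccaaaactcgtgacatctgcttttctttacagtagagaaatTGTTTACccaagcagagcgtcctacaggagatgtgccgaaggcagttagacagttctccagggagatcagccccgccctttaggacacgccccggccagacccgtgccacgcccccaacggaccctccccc
Rsph9: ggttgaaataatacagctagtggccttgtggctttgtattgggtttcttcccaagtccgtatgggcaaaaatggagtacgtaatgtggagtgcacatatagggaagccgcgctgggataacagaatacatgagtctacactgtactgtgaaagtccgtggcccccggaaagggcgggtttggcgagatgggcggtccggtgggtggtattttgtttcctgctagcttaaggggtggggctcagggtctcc
Cfap69: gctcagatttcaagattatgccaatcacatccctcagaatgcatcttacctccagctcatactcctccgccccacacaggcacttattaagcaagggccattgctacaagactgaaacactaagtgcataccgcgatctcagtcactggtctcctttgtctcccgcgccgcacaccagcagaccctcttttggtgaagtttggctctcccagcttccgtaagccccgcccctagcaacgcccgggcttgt
The motifs were GTTGCCA and the longer GTTGCCATG, which contains it, for the X-box bound by RFX factors, and GTAAACA for forkhead factors, on both strands. Ak7 held one forkhead match, on the minus strand of the gene from -131 to -125, and the other 3 windows held none of the letters searched. A promoter was given for 12 of the 16 tested genes (14 promoters), Foxj1 and Cfap97 not among them. Among these 14 promoters 3 held GTTGCCA (21.4%, against 3.66% of all 32851 promoters in the table), 0 held GTTGCCATG (0.642% of all) and 2 held GTAAACA (14.3%, against 3.17% of all). Over the 55 promoters of all members the counts were 6, 1 and 5. These are matches of letters only, with no test.

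One day after contusion several axonemal genes were lower in both genotypes. Ak7, an adenylate kinase of the motile axoneme, was 3.40-fold lower in WT and 3.27-fold lower in KO. The radial spoke head genes Rsph1 and Rsph9, the central pair gene Cfap54, the ruler gene Ccdc39 and the tektin gene Tekt5 were lower as well. In WT 8 of the 16 tested members (50%) were lower and 1 higher, where 28.9% of all tested probe sets were lower and 24.0% higher. In KO the counts were again 8 lower (50%) and 1 higher, against 23.7% lower and 20.9% higher of all probe sets. A gene can pass the filter through the group in which it is high, so these counts describe the genes that passed and not the whole set. The median difference of the 16 members was -0.40 in WT and -0.39 in KO, beside -0.04 over all probe sets in each. With day 1 WT replicates 1 and 2 moved to the groups of their source field, 3 members were called on day 1 in WT (0 higher, 3 lower). In a homogenate of whole cord, fewer ependymal cells, less RNA per cell and changes in other cell types cannot be told apart.

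At 3 days after contusion 7 members (43.8%) were lower and 2 higher in WT, and 10 (62.5%) were lower and 0 higher in KO. The share of all probe sets called was large at this time: 35.7% lower and 26.1% higher in WT, and 36.7% lower and 28.2% higher in KO. By day 7 the count was 6 lower (37.5%) and 1 higher in WT, against 31.7% and 21.8% of all probe sets, and 5 lower (31.2%) and 1 higher in KO, against 27.4% and 19.8%. The median difference of the members was -0.24 in WT and -0.17 in KO at day 7, beside -0.08 and -0.07 over all probe sets. The day 3 count in WT and both day 7 counts lie close to the background share. With array weights the day 7 count in KO was 10 (2 higher, 8 lower).

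**Figure D2:**
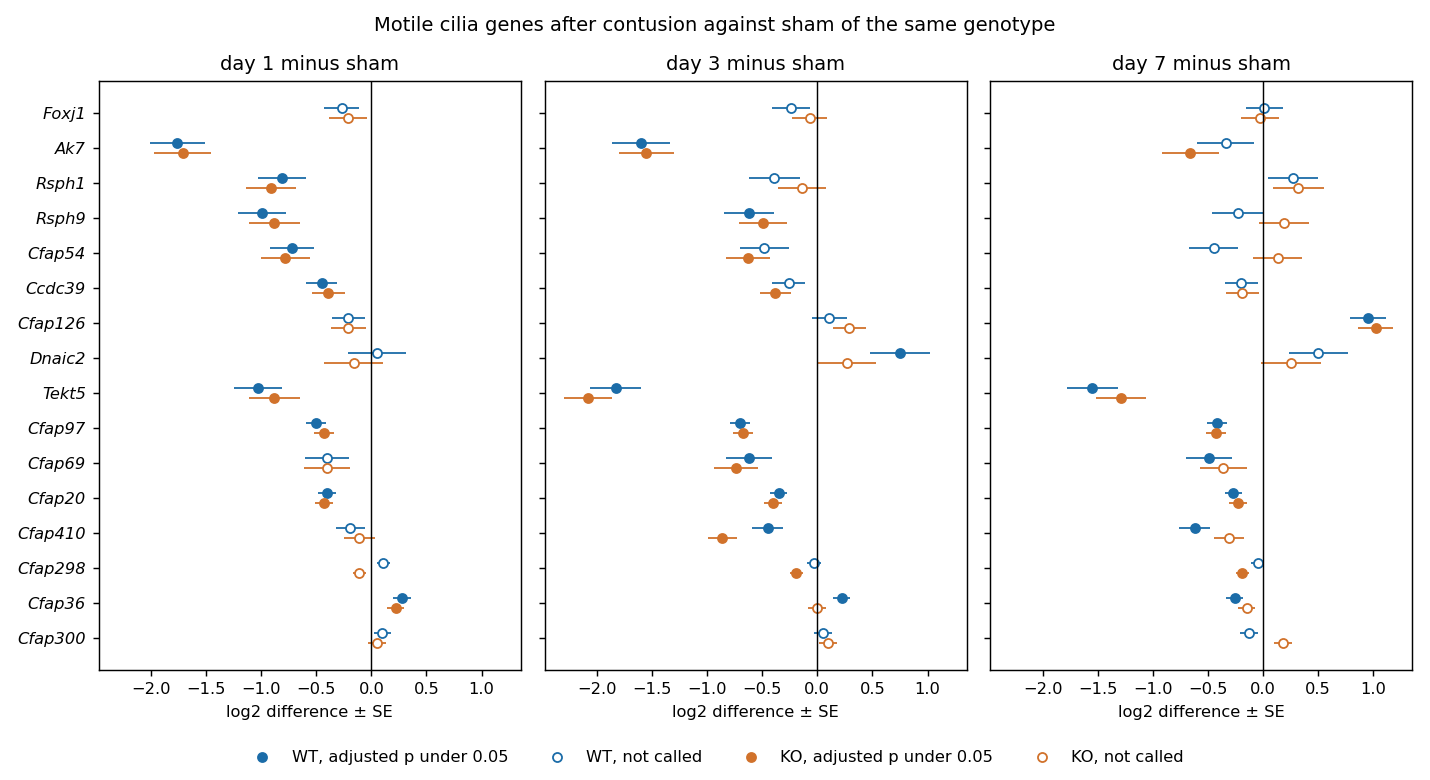
Points are differences in log2 signal from sham of the same genotype with their standard error, for WT (blue) and KO (orange) at 1, 3 and 7 days; filled points passed an adjusted p of 0.05. The largest fall was that of Ak7 on day 1 and of Tekt5 on day 3 in both genotypes, Tekt5 was lower at all 3 times, and Cfap126 was higher at day 7 in both genotypes.

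Foxj1 gave no called change. In sham WT its log2 signal was 5.20, 5.20, 5.20 and 5.29, and in sham KO 5.28, 5.36, 5.20 and 5.62. On day 1 it was 5.02, 5.01, 5.20, 5.33 and 4.23 in WT and 5.20, 5.03, 5.20 and 5.20 in KO. The day 3 values were 5.04, 4.59, 5.20 and 5.10 in WT and 5.01, 5.45, 5.23, 5.11 and 5.66 in KO. On day 7 WT arrays read 5.15, 5.20, 5.52 and 5.07, and KO arrays 5.18, 5.30, 5.61 and 5.23. The groups overlapped at every time, and the largest difference from sham was -0.27 ± 0.16 (SE) on day 1 in WT, adjusted p = 0.168. Of the 34 arrays 10 lay within 0.01 of one repeated value; 14.9% of all tested probe sets have such a value, shared by 8 or more arrays. Changes of Foxj1 RNA near that level may not be resolved.

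Ak7 fell on day 1 and rose again between days 3 and 7. Its log2 signal was 5.11, 5.77, 5.59 and 5.68 in sham WT, and 3.21, 3.69, 4.54, 3.71 and 3.71 on day 1. It was 3.84, 3.06, 4.56 and 4.27 on day 3 and 4.95, 5.39, 5.10 and 5.34 on day 7. Every day 1 and day 3 WT array lay below every sham WT array, and the day 7 arrays overlapped with sham. In KO the sham arrays read 6.30, 5.88, 5.85 and 5.68, the day 1 arrays 4.54, 4.29, 3.71 and 4.32, the day 3 arrays 4.00, 4.60, 3.96, 4.57 and 4.73, and the day 7 arrays 5.19, 5.05, 5.32 and 5.51. Here all injured arrays were below all sham arrays at each time. The difference from sham in WT was -1.76 ± 0.25 on day 1 (adjusted p = 1.18e-06), -1.60 ± 0.26 on day 3 (6.71e-06) and -0.34 ± 0.26 on day 7 (0.281). In KO it was -1.71 ± 0.26 (adjusted p = 5.77e-06), -1.55 ± 0.25 (3.31e-06) and -0.66 ± 0.26 (0.0384). The last call was lost, with adjusted p from 0.0529 to 0.125, without any 1 of sham KO replicates 1, 2 and 3 and day 7 KO replicates 1, 2 and 3. From day 3 to day 7 Ak7 rose by 1.26 ± 0.26 in WT (adjusted p = 0.000921) and by 0.90 ± 0.25 in KO (0.00794).

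Rsph9, a protein of the radial spoke head, followed a like course. Sham WT arrays read 5.14, 5.04, 5.72 and 5.80, and day 1 WT arrays 4.64, 4.33, 4.26, 4.03 and 4.88, all below sham. Sham KO arrays read 5.52, 5.03, 5.38 and 5.62, and day 1 KO arrays 4.66, 4.67, 4.60 and 4.11, again with no overlap. The day 1 difference was -0.99 ± 0.22 in WT (adjusted p = 0.000409) and -0.88 ± 0.23 in KO (0.00293). On day 3 the signal was still lower, by -0.62 ± 0.23 in WT (adjusted p = 0.0211) and -0.49 ± 0.22 in KO (0.0489), but both groups overlapped with sham. Each of these calls depended on single arrays. Without any 1 of sham WT replicates 3 and 4 or day 3 WT replicates 2 and 3 the adjusted p was 0.0723 to 0.101. Without any 1 of sham KO replicates 1, 3 and 4 or day 3 KO replicates 1 and 3 it was 0.0772 to 0.141. By day 7 the difference from sham was -0.23 ± 0.23 in WT (adjusted p = 0.419) and 0.19 ± 0.23 in KO (0.518).

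Rsph1, its partner in the spoke head, was lower on day 1 only. Sham WT arrays read 5.62, 5.64, 6.11 and 6.25 and day 1 WT arrays 4.65, 5.00, 4.98, 5.62 and 5.22, touching at the top of the day 1 range. Sham KO arrays read 5.68, 6.04, 5.60 and 5.99, all above the day 1 KO arrays at 5.16, 4.85, 4.57 and 5.11. The difference was -0.81 ± 0.22 in WT (adjusted p = 0.00279) and -0.91 ± 0.23 in KO (0.00226). It was -0.39 ± 0.23 (adjusted p = 0.139) and -0.14 ± 0.22 (0.602) on day 3, and 0.27 ± 0.23 (0.331) and 0.32 ± 0.23 (0.269) on day 7, in WT and KO in that order. The step called was a different one in each genotype: 0.77 ± 0.22 from day 1 to day 3 in KO (adjusted p = 0.00492), and 0.67 ± 0.23 from day 3 to day 7 in WT (0.0401). The WT step was lost without any 1 of day 3 WT replicates 2 and 4 or day 7 WT replicates 1, 2 and 3 (adjusted p from 0.0578 to 0.191). Whether these steps differ between genotypes was not tested.

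Cfap54, a protein of a central pair projection, read 4.66 to 5.75 in sham WT and 4.22 to 4.67 on day 1, and 4.68 to 5.62 in sham KO and 4.17 to 4.68 on day 1, so that the ranges met at their edges. The day 1 difference was -0.72 ± 0.20 in WT (adjusted p = 0.00432) and -0.78 ± 0.22 in KO (0.00476). On day 3 it was -0.48 ± 0.22 in WT (adjusted p = 0.0535) and -0.63 ± 0.20 in KO (0.00805); the KO call was lost (-0.48, 0.0691) without the 3 arrays that stand apart. On day 7 WT arrays stayed between 4.68 and 4.74, and KO arrays read 5.03, 4.93, 5.78 and 5.70. Of the 4 day 7 WT arrays 3 gave the same value, 4.68, which 8 of the 34 arrays share within 0.01.

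Ccdc39, a component of the axonemal ruler, moved little. It read 7.10 to 7.59 in sham WT and 6.67 to 7.04 on day 1, and 7.10 to 7.46 in sham KO and 6.66 to 7.06 on day 1, with no overlap in either genotype. The difference was -0.45 ± 0.14 in WT (adjusted p = 0.0103) and -0.39 ± 0.15 in KO (0.0385), and in KO on day 3 it was -0.38 ± 0.14 (0.0222). The WT call was lost without sham WT replicate 2 (adjusted p = 0.0563). The day 1 KO call was lost without any 1 of sham KO replicates 1, 2 and 3 or day 1 KO replicates 1 and 4 (adjusted p from 0.0557 to 0.142). The day 3 KO call was lost without any 1 of sham KO replicates 2 and 3 or day 3 KO replicates 3 and 4 (0.0557 to 0.0837). On day 7 the differences were -0.20 ± 0.15 in WT and -0.19 ± 0.15 in KO, neither of them called.

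Tekt5, a tektin best known from the sperm flagellum, fell and stayed low. Sham WT arrays read 6.18, 5.95, 6.42 and 5.98. The day 1 values were 4.92, 4.78, 5.19, 5.10 and 5.50, the day 3 values 4.37, 4.04, 4.40 and 4.41, and the day 7 values 4.88, 4.48, 4.21 and 4.76. In KO the sham arrays read 6.45, 6.33, 6.06 and 6.32, the day 1 arrays 4.99, 5.65, 6.01 and 5.00, the day 3 arrays 4.04, 4.47, 4.04, 3.52 and 4.99, and the day 7 arrays 5.06, 4.89, 5.12 and 4.94. No injured array of either genotype reached its sham range. The difference from sham in WT was -1.03 ± 0.22 on day 1 (adjusted p = 0.000244), -1.83 ± 0.23 on day 3 (1.17e-07) and -1.55 ± 0.23 on day 7 (2.33e-06). In KO it was -0.88 ± 0.23 (adjusted p = 0.00268), -2.08 ± 0.22 (2.81e-09) and -1.29 ± 0.23 (3.87e-05). The day 3 fall was 3.54-fold in WT and 4.23-fold in KO. From day 3 to day 7 Tekt5 rose by 0.79 ± 0.22 in KO (adjusted p = 0.00708), and in WT the step was 0.28 ± 0.23 (0.422).

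**Figure D3:**
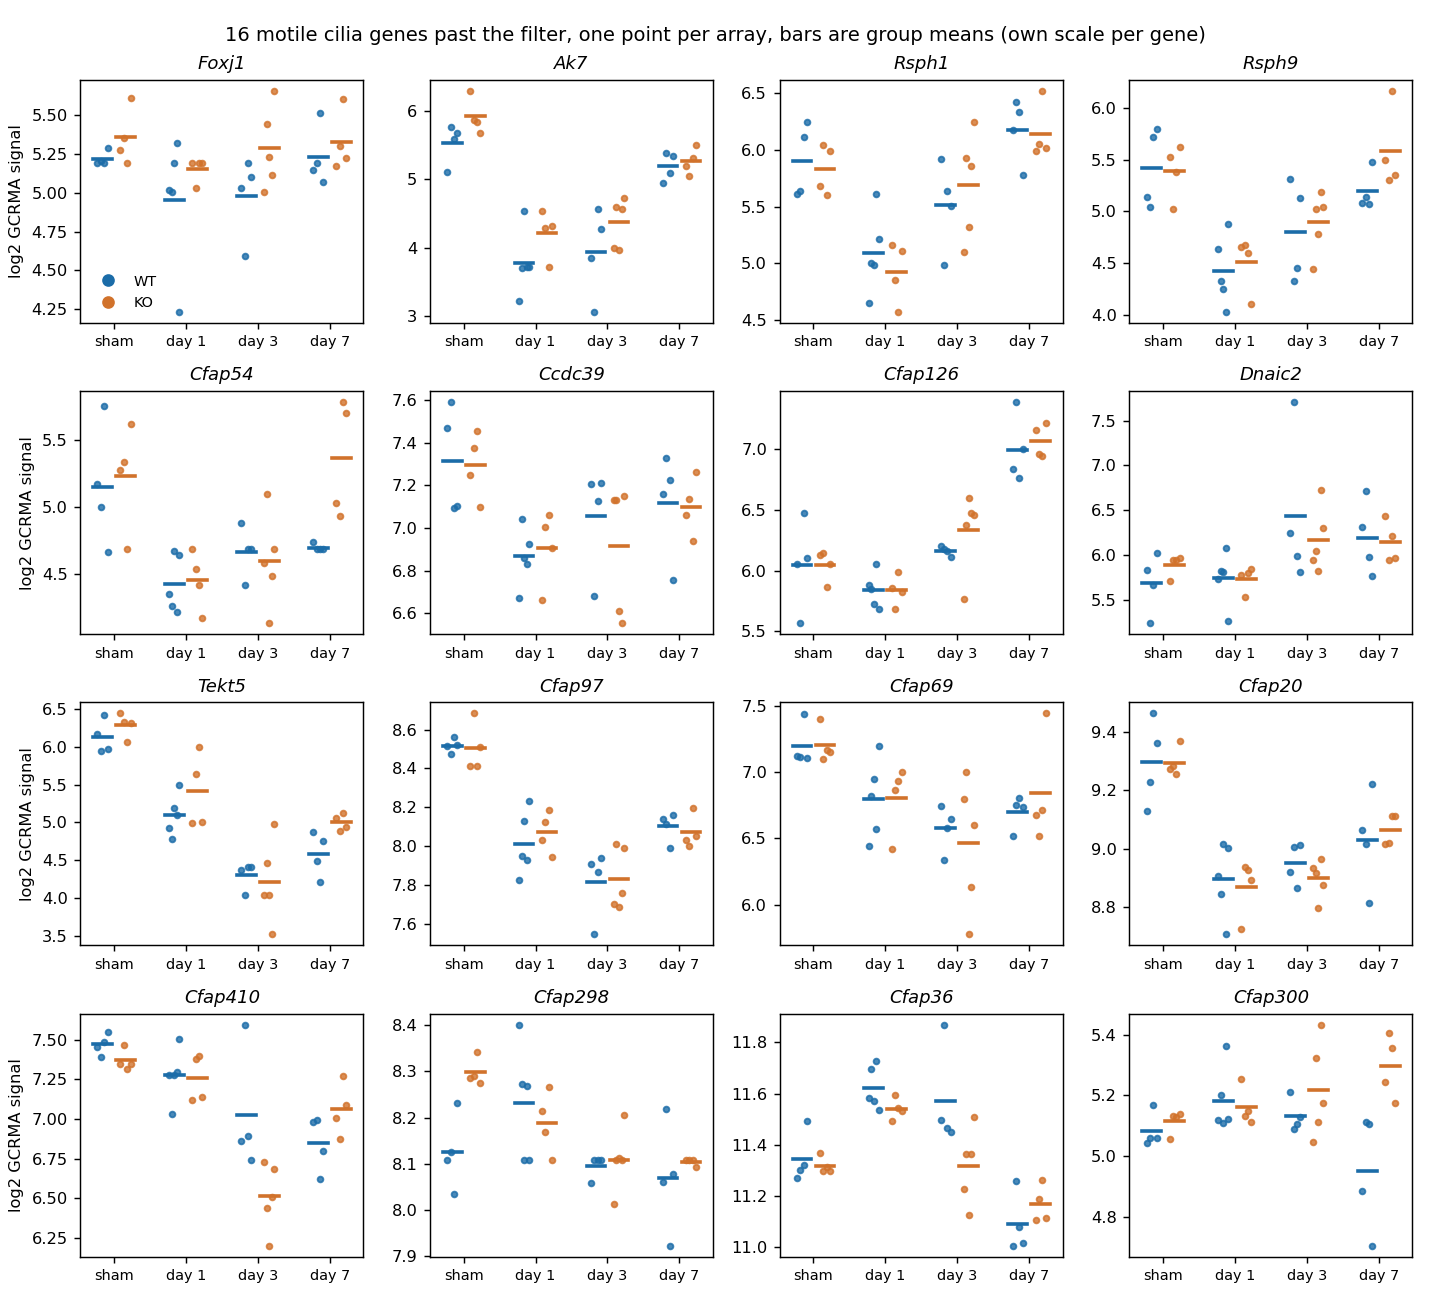
Log2 GCRMA signal of the 16 tested members in sham and on days 1, 3 and 7, WT in blue and KO in orange, one point per array and a bar at each group mean; each gene has its own axis, which does not start at 0. Ak7, Rsph1 and Rsph9 were low on day 1. On day 7 Rsph1 and Rsph9 overlapped with sham in both genotypes and Ak7 in WT alone, and Tekt5 and Cfap97 stayed below their sham range.

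Among the Cfap genes (the name stands for cilia and flagella associated protein), Cfap97 and Cfap20 were called lower on days 1, 3 and 7 in both genotypes. Cfap97 read 8.47 to 8.56 in sham WT and 8.41 to 8.68 in sham KO, and at most 8.23 on any injured array. Its difference from sham was -0.50 ± 0.09, -0.70 ± 0.09 and -0.42 ± 0.09 in WT and -0.43 ± 0.09, -0.67 ± 0.09 and -0.43 ± 0.09 in KO on days 1, 3 and 7, with adjusted p from 1.83e-07 to 0.000501. Its second probe set was called lower on days 1 and 3 in both genotypes, but not on day 7, with -0.22 ± 0.15 in WT (adjusted p = 0.233) and -0.35 ± 0.15 in KO (0.056). Cfap20, found at the inner junction of the doublets, was lower in all 6 comparisons, by -0.23 to -0.43. The smallest of these, day 7 KO (-0.23 ± 0.08, adjusted p = 0.0184), was lost without sham KO replicate 4 (0.0557). The second Cfap20 probe set was also called lower in all 6 comparisons, by -0.22 to -0.42.

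Cfap69, which is needed to form the sperm flagellum, was lower on day 3, by -0.62 ± 0.21 in WT (adjusted p = 0.0106) and -0.74 ± 0.20 in KO (0.0015). Its day 7 call in WT (-0.49 ± 0.21, adjusted p = 0.0443) was lost without any 1 array of the 2 groups compared (0.0538 to 0.126). The second Cfap69 probe set, dim with a mean of 3.48, was called lower in all 3 WT comparisons, by -0.94 to -1.09. In KO it was called lower on day 3 (-1.26 ± 0.36, adjusted p = 0.00324) but not on day 1 (-0.71 ± 0.38, 0.131) or day 7 (-0.69 ± 0.38, 0.141). Cfap410, found at the ciliary base, was lower on day 3 by -0.45 ± 0.14 in WT (adjusted p = 0.00604) and -0.86 ± 0.13 in KO (1.64e-06). On day 3 the 5 KO arrays read 6.73, 6.44, 6.20, 6.51 and 6.69, and the WT arrays 6.86, 7.59, 6.89 and 6.74. On day 7 Cfap410 was called lower in WT (-0.62 ± 0.14, adjusted p = 0.000412), and in KO the difference was -0.31 ± 0.14 (0.0651). Its second probe set was called lower in all 3 WT comparisons and on days 3 and 7 in KO.

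Cfap126, known as Flattop and involved in placing basal bodies, rose by day 7 in both genotypes. On day 7 WT arrays read 6.84, 7.39, 6.76 and 7.00, above the sham WT values of 6.05, 5.57, 6.48 and 6.10. Day 7 KO arrays read 7.16, 6.97, 6.94 and 7.22, above the sham KO values of 6.13, 6.15, 5.86 and 6.06. The difference was 0.95 ± 0.16 in WT (adjusted p = 1.26e-05) and 1.02 ± 0.16 in KO (5.22e-06), 1.93-fold and 2.03-fold. It was -0.21 ± 0.15 and -0.21 ± 0.16 on day 1, and 0.11 ± 0.16 and 0.29 ± 0.15 on day 3, none of them called.

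The remaining members showed small or unstable differences. Cfap36, a binding partner of the small GTPase Arl3, was higher on day 1 by 0.28 ± 0.08 in WT (adjusted p = 0.00468) and 0.22 ± 0.08 in KO (0.0322). The KO call was lost without any 1 of sham KO replicates 2, 3 and 4 or day 1 KO replicates 2, 3 and 4 (0.0517 to 0.0766). Its day 3 WT call (0.22 ± 0.08, adjusted p = 0.0214) was lost without any 1 of sham WT replicates 1 and 2 or day 3 WT replicate 2 (0.0515 to 0.155). On day 7 it was lower in WT by -0.26 ± 0.08 (adjusted p = 0.011), lost without sham WT replicate 4 (0.0512). Dnaic2, an intermediate chain of the outer dynein arm, was called higher on day 3 in WT (0.75 ± 0.27, adjusted p = 0.0195). Its day 3 WT arrays read 6.25, 7.71, 5.99 and 5.81, and without day 3 WT replicate 2 the difference was 0.32 (adjusted p = 0.193). Without sham WT replicate 2 it was 0.60 (0.0801). Cfap298, a dynein arm assembly factor, was called lower in KO on days 3 and 7 by -0.19 ± 0.06. Its probe set gave 8.11 within 0.01 on 13 arrays, and its second probe set was called lower on days 3 and 7 in both genotypes, by -0.39 to -0.57. Cfap300, also a factor of dynein arm assembly, was not called in any of these comparisons.

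Between successive times the counts were as follows. From day 1 to day 3 there was 1 higher (Dnaic2) and 1 lower (Tekt5) in WT, where 11.7% and 15.4% of all probe sets were called, and 2 higher and 4 lower in KO, where 19.4% and 27.2% were. With array weights 7 members were called at this step in WT (4 higher, 3 lower). In KO the number lower was 2 to 5 when 1 array at a time was left out, and 2 without day 1 KO replicate 2, day 3 KO replicate 1 or day 3 KO replicate 3. The Dnaic2 step (0.69 ± 0.26, adjusted p = 0.0469) was 0.27 without day 3 WT replicate 2 (0.342), and it was also lost without day 3 WT replicate 1 or day 1 WT replicates 1, 2, 3 or 5 (0.055 to 0.124). From day 3 to day 7 there were 4 higher and 1 lower in WT against 8.64% and 10.5% of all probe sets, and 7 higher and 0 lower in KO against 16.2% and 14.2%. Ak7, Cfap126 and Cfap97 were among the members that rose in both genotypes over that interval, and Cfap54, Cfap410, Rsph9 and Tekt5 were called in KO. The Cfap97 steps (0.29 ± 0.09 in WT, adjusted p = 0.0308, and 0.24 ± 0.09 in KO, 0.0408) were each lost without single arrays: day 3 WT replicate 2 or day 7 WT replicates 1, 2 or 4 in WT (adjusted p up to 0.173), and day 3 KO replicates 1, 3 or 4 or any day 7 KO array in KO (up to 0.133). The Rsph9 step in KO (0.69 ± 0.22, adjusted p = 0.0187) was lost without day 3 KO replicate 1 (0.0523) or day 7 KO replicate 3 (0.106). Without day 3 WT replicate 2, and likewise without day 7 WT replicate 1 or 2, the WT count was 3 in place of 5.

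Of the 42 genes under the filter, 7 were called lower and 0 higher on day 1 in WT in a fit with no filter, and 5 lower and 0 higher in KO. Of all 45037 probe sets in that fit, 16.2% were called lower in WT and 12.3% in KO. Those shares include the brighter probe sets that passed the filter. The share among dim probe sets alone was not computed, so the counts cannot be set against a like background. Tmem212 and Dnaic1 were called in both genotypes and had the largest differences. Tmem212, a membrane protein used as an ependymal marker, read 3.29, 3.73, 4.15 and 3.41 in sham WT and 2.20 to 2.23 on all 5 day 1 WT arrays. In sham KO it read 3.19, 3.77, 2.74 and 3.44, and on day 1 KO 2.24 to 2.29. On day 7 the values were 2.80, 3.94, 2.54 and 2.53 in WT and 3.44, 2.67, 3.29 and 4.38 in KO. Dnaic1, the partner of Dnaic2 in the outer dynein arm, read 3.72 to 4.47 in sham WT and 2.48 to 3.11 on day 1, and 3.29 to 4.20 in sham KO and 2.72 to 3.06 on day 1. In that fit Tmem212 differed from sham on day 1 by -1.43 ± 0.26 in WT (adjusted p = 0.000114) and -1.01 ± 0.28 in KO (0.00765). Dnaic1 differed by -1.20 ± 0.19 (adjusted p = 2.33e-05) and -0.81 ± 0.20 (0.00395). These values end near the bottom of the scale, so the differences understate what a wider range would show.

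No member was called between genotypes. With limma 0 of 16 members passed in sham (0.0529% of all probe sets called), on day 1 (0.549%), on day 3 (0.0366%), on day 7 (0.0407%) or for the mean over the 4 conditions (0.126%). The sham count stayed 0 with any 1 array left out, sham KO replicate 2 among them. The number with an unadjusted p under 0.05 was 1 in sham, 0 on day 1, 2 on day 3, 2 on day 7 and 3 for the mean. The test of whether injury acted differently by genotype called 0 members on day 1 (0.0692% of all probe sets), day 3 (0%) and day 7 (0.00407%), with 1 member under an unadjusted p of 0.05 at each time. With array weights 1 member passed in 1 comparison: Cfap300, 0.34 ± 0.06 higher in KO on day 7 (adjusted p = 0.00505).

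The members under an unadjusted p of 0.05 were Cfap298 in sham, Cfap36 and Cfap410 on day 3, Cfap54 and Cfap300 on day 7, and Ak7, Cfap300 and Foxj1 for the mean. In sham Cfap298 was 0.17 ± 0.06 higher in KO (95% interval 0.04 to 0.30, adjusted p = 0.902). On day 3 Cfap410 differed by -0.51 ± 0.13 (-0.78 to -0.24, adjusted p = 0.221) and Cfap36 by -0.25 ± 0.08 (-0.41 to -0.09, adjusted p = 0.358). On day 7 Cfap54 differed by 0.66 ± 0.22 (0.22 to 1.11, adjusted p = 0.858) and Cfap300 by 0.34 ± 0.08 (0.17 to 0.52, adjusted p = 0.294). Averaged over the 4 conditions the difference was 0.34 ± 0.13 for Ak7 (0.08 to 0.60, adjusted p = 0.485), 0.11 ± 0.04 for Cfap300 (0.03 to 0.19, adjusted p = 0.465) and 0.19 ± 0.08 for Foxj1 (0.02 to 0.35, adjusted p = 0.603). The single intervals leave out 0, but none of these passes after correction over all probe sets. For the mean over conditions the single 95% intervals of the 16 members run from -0.30 to 0.60. Within conditions they are wider, from -0.80 (Dnaic2, day 3) to 1.11 (Cfap54, day 7). For injury by genotype they run from -1.25 (Dnaic2, day 3) to 1.21 (Cfap54, day 7). The range for the mean therefore does not bound the genotype effect in any 1 condition.

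**Figure D4:**
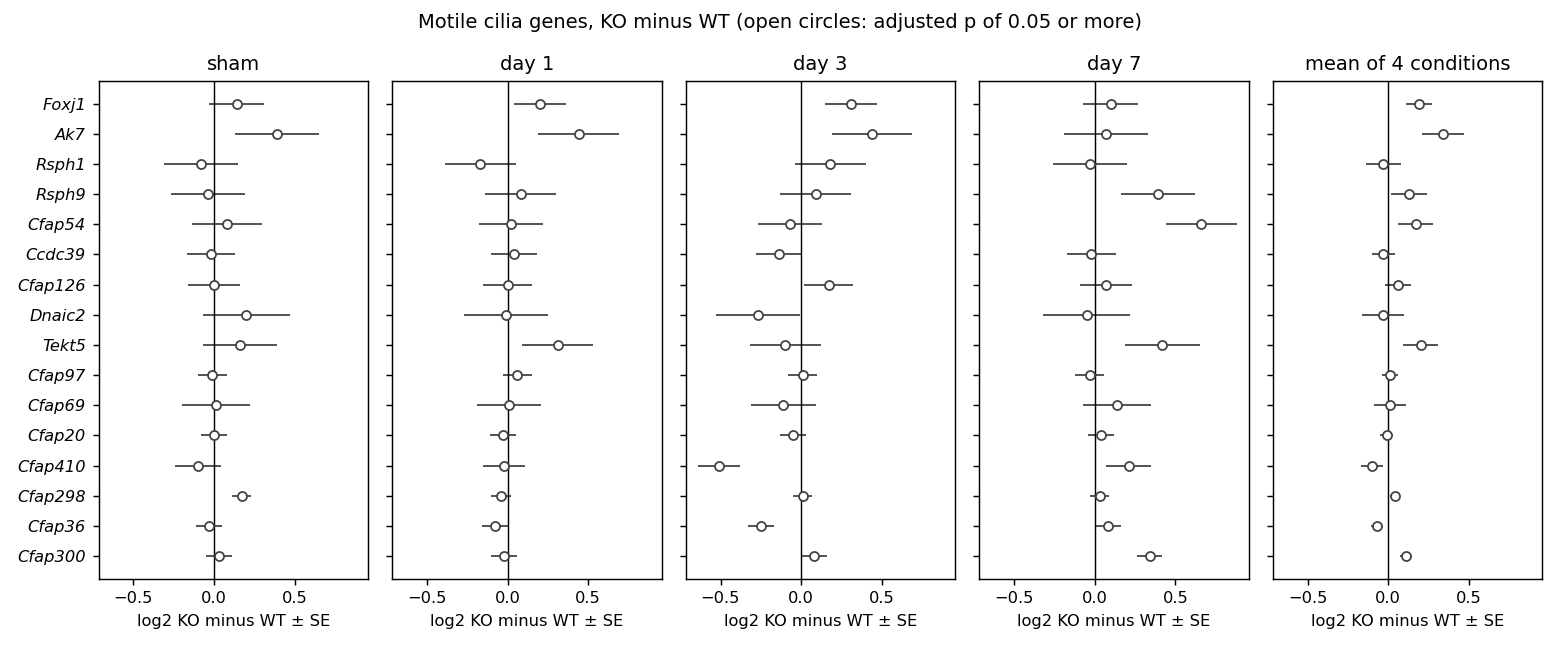
Points are KO minus WT differences in log2 signal with their standard error for the 16 tested members, in sham, on days 1, 3 and 7 and for the mean of the 4 conditions. All points are open because none passed an adjusted p of 0.05; the largest is Cfap54 on day 7 at 0.66.

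Genes of the same machinery outside the naming rule gave a mixed picture. Of a list of 75 other motile axoneme genes, 17 of the 55 on the array were tested, and on day 1 in WT 7 (41.2%) were lower and 1 higher (median difference -0.47; KO 6, or 35.3%, and 1, median -0.35). Of all probe sets 28.9% were called lower on that day in WT and 23.7% in KO. The brightest genes of the list were the dynein light chain Dynll1, Tppp3, Spag1 and Morn2. Dynll1, which many cell types use, rose on day 1 by 0.38 ± 0.08 in WT, and Morn2 fell by -0.47 ± 0.10. Chosen after their values were seen, Dynlrb2 (a dynein light chain of the roadblock type) fell on day 1 by -2.28 ± 0.23 in WT (adjusted p = 3.64e-09) and -1.68 ± 0.24 in KO (2.49e-06), and Efcab1 by -1.44 ± 0.32 (0.000411) and -1.50 ± 0.33 (0.000649). On day 7 Dynlrb2 differed from sham by -0.16 ± 0.24 and 0.40 ± 0.24, and Efcab1 by -0.30 ± 0.33 and 0.15 ± 0.33, none of them called. Drc3, of the dynein regulatory complex and also chosen after its values were seen, was lower in all 6 comparisons, by -0.84 to -1.37.

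Among 9 tested genes listed as transcription factors of multiciliated cells 5 were lower and 1 higher on day 1 in WT. In KO 4 were lower and 1 higher (medians -0.34 and -0.37). Of all probe sets 28.9% were lower and 24.0% higher in WT, and 23.7% and 20.9% in KO. The RFX factors Rfx4 (-0.89 ± 0.12 in WT, -1.01 ± 0.12 in KO) and Rfx7 (-0.51 ± 0.10, -0.47 ± 0.10) fell in both genotypes, and Nfix did too (-0.34 ± 0.07, -0.37 ± 0.07). Chosen after their values were seen, Rfx5 was lower (-0.79 ± 0.13, -0.62 ± 0.13) and E2f5 higher (0.44 ± 0.12, 0.33 ± 0.13). On day 7 Nfix was above sham (0.31 ± 0.07, 0.26 ± 0.07), and so was Sox2 (0.35 ± 0.11, 0.28 ± 0.11). Rfx1 and Rfx3 were also tested and are not described here, so the RFX factors named do not stand for the family. Several of these factors are also made by astrocytes and neurons, and the list does not show that each one acts in ciliated cells.

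Intraflagellar transport genes, which build all cilia, were lower in part: 15 of 31 on day 1, 17 on day 3 and 9 on day 7 in WT, and 10, 11 and 8 in KO, with a median of -0.26 on day 1 in WT and -0.22 in KO. In the same order 28.9%, 35.7% and 31.7% of all probe sets were called lower in WT and 23.7%, 36.7% and 27.4% in KO. The list's shares were 48.4%, 54.8% and 29% in WT and 32.3%, 35.5% and 25.8% in KO, so that the day 7 counts and the day 3 count in KO were near or below the background. Kifap3 and Kif3a, subunits of the kinesin-2 motor that neurons also use, were lower in all 6 comparisons, by -0.46 to -0.87 and -0.44 to -0.97. Ift27 was lower on days 1 and 7 in WT and on day 7 in KO, and Tctex1d2 was not called. Of 20 BBSome and ciliary gate genes 12 (60%) were lower and 3 higher on day 1 in WT (KO 6, or 30%, and 5), with Arl3 and Ahi1 lower by -0.40 ± 0.07 and -0.83 ± 0.19, Mkks by -0.28 ± 0.11 and Ttc8 by -0.53 ± 0.16. Of 17 centriole and basal body genes 5 (29.4%) were lower and 2 higher (KO 4, 23.5%, and 2), close to the 28.9% and 23.7% of all probe sets called lower. Ccp110 fell by -0.90 ± 0.10 and Pcm1 by -0.38 ± 0.09 on day 1 in WT, while Cetn2 and Cep83 were not called on that day. Of 6 genes listed as dynein arm assembly factors 3 were higher and 0 lower on day 1 in each genotype. These were Dnaaf5 (0.75 ± 0.15 in WT), Pih1d1 (0.52 ± 0.11) and, chosen after its values were seen, Ruvbl2 (0.71 ± 0.22). The other two of the brightest 4, Ruvbl1 (0.09 ± 0.06 in WT, 0.15 ± 0.07 in KO) and Tbc1d31 (-0.04 ± 0.15, -0.23 ± 0.16), were not called on that day. Of all probe sets 24.0% were called higher in WT and 20.9% in KO. Pih1d1, Ruvbl1 and Ruvbl2 also work in general protein complex assembly.

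Genes listed as ependymal and outside the axoneme moved in both directions. On day 1 in WT 14 of 22 were lower and 5 higher (KO 13 and 3; medians -0.53 and -0.56), and on day 7 in WT 5 were lower and 10 higher (KO 4 and 10). Of all probe sets 28.9% were lower and 24.0% higher on day 1 in WT, and 23.7% and 20.9% in KO. The day 7 shares were 31.7% lower and 21.8% higher in WT, and 27.4% and 19.8% in KO. The brightest genes of the list are shared with astrocytes: Vim rose by 3.16 ± 0.19 on day 1 in WT, and Aqp4, Gja1 and S100b fell by -0.42 ± 0.18, -1.05 ± 0.15 and -0.43 ± 0.07. Ccdc153, a coiled-coil gene of this list, read 4.48 to 5.18 in sham WT and 2.28 on all 5 day 1 arrays. In KO it read 4.60 to 5.33 in sham and 2.17 to 2.81 on day 1. Whether Ccdc153 lies outside the axoneme was not checked, so it is not used as a marker independent of the cilium. On day 7 it read 4.03 to 4.73 in WT and 4.45 to 5.16 in KO. It was also among the 12 genes whose course was closest to the mean of the tested members (r = 0.92 over 34 arrays; 0.714 after group means were removed), with Rnf13 (0.92) and Zfp37 (0.92) beside it. For Foxj1 the closest genes were Smad7 (r = 0.729), Tmco3 (0.659) and Vps18 (0.654), with the axonemal dynein gene Wdr78 in sixth place (0.631). These are descriptions over arrays that share the time course.

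Other cell types changed over the same days, and their part in the members' differences was not tested. The mean of 15 neuronal genes was 12.12 to 12.18 in sham WT, 11.55 to 11.91 on day 1, 11.11 to 11.56 on day 3 and 11.44 to 11.61 on day 7. In KO it was 12.09 to 12.21, 11.64 to 12.00, 10.64 to 11.61 and 11.54 to 11.61. Neuronal genes called lower were 8 of 15 on day 1, 14 on day 3 and 14 on day 7 in WT, and 4, 14 and 12 in KO. The shares of all probe sets were 28.9%, 35.7% and 31.7% in WT and 23.7%, 36.7% and 27.4% in KO. The day 1 count in KO was thus near the background. Over the 34 arrays Tekt5 followed this neuronal mean (r = 0.911; 0.617 within groups), as did Cfap97 (0.858; 0.642) and Cfap69 (0.833; 0.73). Ak7, Rsph1, Rsph9 and Cfap54 followed Ccdc153 more closely (r = 0.92, 0.796, 0.805 and 0.783; within groups 0.681, 0.649, 0.301 and 0.553) than the neuronal mean (0.49, 0.0065, 0.205 and 0.408; within groups 0.345, 0.233, 0.103 and 0.407). For Ccdc39 r was 0.629 with Ccdc153 (0.301 within groups) and 0.587 with the neuronal mean (0.701). Ccdc153 was chosen after its values were seen and was among the 12 genes closest to the mean of the tested members. A high r of members with it is therefore partly built in. A single gene is also set here against a mean of 15 genes. These values do not assign a member to a cell type, and no test of the differences was made.

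The mean of 12 macrophage and microglial genes rose from 7.36 to 7.61 in sham WT to 9.43 to 10.03 on day 1 and 11.59 to 12.02 on day 7. In KO it went from 6.66 to 7.37 in sham to 9.18 to 9.74 and 11.55 to 11.70. All 10 reactive astrocyte genes were higher in each comparison with sham. For 13 skeletal muscle genes 0 were higher and 1 lower on day 1 in WT, and 0 higher and 13 lower in KO. For 10 meningeal and fibroblast genes 5 were higher on day 1 and 9 on day 7 in WT, and 0 and 9 in KO. Of 10 homeostatic astrocyte genes 6 were lower on day 1 in WT and 5 in KO. Of 5 tested choroid plexus genes 1 was higher and 1 lower on day 1 in each genotype, and of 4 tested genes of cerebrospinal fluid contacting neurons 1 was lower in WT and 2 in KO. Over all probe sets 28.9% were lower and 24.0% higher on day 1 in WT, and 23.7% and 20.9% in KO. On day 7 the share higher was 21.8% in WT and 19.8% in KO. The choroid plexus counts and the WT count of cerebrospinal fluid contacting neurons did not exceed these shares. The difference between the 3′ and 5′ probe sets of actin, a sign of RNA quality, was 1.80 to 2.14 in sham, 1.61 to 1.82 on day 1, 1.22 to 1.81 on day 3 and 1.45 to 2.02 on day 7. For Gapdh the same difference went the other way, from 0.0311 to 0.124 in sham to 0.2 to 0.323 on day 1, 0.166 to 0.517 on day 3 and 0.106 to 0.57 on day 7. The part of either in the results was not tested.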

How the data were processed

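The authors deposited 1 table of log2 GCRMA signal for 45101 Affymetrix probe sets in 34 arrays; GCRMA, with no version, is named in the submitters' processing notes, and the log2 scale was read from the values (2.17 to 15.9). GCRMA pulls dim probe sets to a floor, and 33.7% of values lay within 0.1 of the lowest, so low signals are bounds and differences there are understated. Probe sets were named from the platform annotation and checked by Entrez ID against RefSeq (58 of 58 member genes). Values were used as deposited. One mean per title group was fitted with limma 3.58.1 in R 4.3.3 to the 24573 probe sets with log2 of 4 or more in 4 or more arrays, control probe sets left out, with Benjamini-Hochberg adjustment over all of them; called means adjusted p under 0.05. The fit was tested on simulated data. Replicates carry no stated origin beyond the word biological, so p-values measure the spread between these arrays. Members, lists and rules were chosen with earlier results of these data known. Genes named are the members, the 4 brightest of the ciliary lists and those most like Foxj1 or the member mean; Ntrk2, Ttr, Otx2, Kcne2, actin and Gapdh, named as checks, Ccdc153, and those marked in the text were chosen after values were seen. The numbers that replicates share across groups were not treated as pairs. The correlation of same-numbered deviations had a median of 0.0052 over 113 pairs and ran from -0.454 to 0.43, with 21 pairs over 0.1. A median cannot show whether some groups were handled together, and this was not tested. Alternatives changed the filter, scaling, weights, grouping, block and arrays used.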

Additional observations from a re-analysis of the deposited data

Results flagged for a closer look

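Dixon's criterion for one array far from the rest of its group was applied to the 16 tested members in 8 groups (128 sets of values) and was met 17 times; chance gives about 1 in 20. Day 3 WT replicate 2 met it in 3 genes: Ccdc39 read 6.68 (others 7.13 to 7.21), Cfap36 11.87 (11.45 to 11.50) and Tekt5 4.04 (4.37 to 4.41). Foxj1 met it in day 1 WT replicate 5 (4.23, others 5.01 to 5.32). It also met it in sham WT replicate 4 (5.29) and day 1 KO replicate 2 (5.03), where the other values nearly coincide. Rsph9 read 5.48 on day 7 WT replicate 4 (5.08 to 5.14) and 4.11 on day 1 KO replicate 4 (4.60 to 4.67), and Rsph1 read 6.52 on day 7 KO replicate 3 (5.99 to 6.05). Cfap126 read 5.77 on day 3 KO replicate 1 (6.38 to 6.60), Cfap69 7.44 on sham WT replicate 3 (7.10 to 7.12) and Dnaic2 5.71 on sham KO replicate 1 (5.95 to 5.97). Cfap298 (8.06 on day 3 WT replicate 1, 8.09 on day 7 KO replicate 4), Cfap300 (5.17 on sham WT replicate 3, 5.06 on sham KO replicate 1) and Cfap54 (4.74 on day 7 WT replicate 1) met it in groups whose other values nearly coincide.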

How the results depend on the processing

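The 70 called member differences were recomputed under 1348 alternatives in all: 1200 stayed called in the same direction, 148 kept the direction and lost the call, 0 reversed, and 36 differences were called under every alternative run. With no filter, over 58 members, the counts were 16 (day 1 WT against sham), 14 (day 3 WT), 11 (day 7 WT), 16 (day 3 KO) and 1 (day 3 against day 1, WT). When the 2 day 1 WT arrays whose labels disagree were moved to the groups of their source field the counts were 3 (day 1 WT), 1 (day 3 against day 1, WT), 1 (day 7 against day 3, WT) and 4 (day 7 against day 3, KO); the WT groups then mix arrays of different titles. With only the arrays compared they were 5 (day 3 WT), 1 (day 7 against day 3, WT) and 3 (day 7 against day 3, KO), with fewer arrays behind the spread. Array weights gave 10 (day 7 KO), 7 (day 3 against day 1, WT) and 1 (KO against WT, day 7). A filter of log2 6 left 11 members and 4 called (day 7 against day 3, KO). Without the 3 arrays that stand apart, chosen after the data were seen, 3 were called (day 7 against day 3, WT); the day 3 counts against sham were 6 in WT and 8 in KO, and the others in the report were within 1.5 times. With the replicate number as a block, which no label describes as a pairing, 1 was called (day 3 against day 1, WT), and 2 of the 70 calls were lost in all. Leaving out 1 array at a time gave 1 to 2 (day 3 against day 1, WT) and 3 to 5 (day 7 against day 3, WT). The cause of these changes was not tested beyond what each setting removes. Values near the floor of GCRMA limit what can be said of 42 members.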
